A study of Homo sapiens with 12 samples.

Results

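The cytosolic ribosomal protein genes were examined in BT-549 and SUM149, established human cell lines of triple-negative breast cancer (TNBC), which lacks the hormone receptors and HER2 amplification. Members were the protein-coding genes named RPL or RPS plus a number, with the suffixes A and X where they apply, together with RPLP0, RPLP1, RPLP2 and RPSA. The kinases of the RPS6K family and the paralogs named with an L suffix were left out. The rule found 77 genes, 46 of the large (60S) and 31 of the small (40S) subunit, among 58037 lines of the count table. They lie on 21 chromosomes. The rule uses gene names and no measured value.

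In each line, cells stably carrying MUC1shRNA, a short hairpin RNA against MUC1, the gene of the membrane glycoprotein mucin 1, were set against cells carrying CshRNA, a control hairpin. Each of the 4 groups had 3 libraries made from polyadenylated RNA with a stranded kit. Culture media differed between the lines, being RPMI1640 with serum and insulin for BT-549 and Ham's F-12 with less serum, insulin and hydrocortisone for SUM149. The BT-549 controls are titled CshRNA but their descriptions read vector, and whether a hairpin was present in them is not given. Cells were cultured in triplicate, with no word on separate transductions. The p-values below therefore reflect the spread among these cultures, which may be technical.

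The ribosome translates mRNA in the cytosol. Its small subunit decodes the mRNA, and its large subunit joins the amino acids and passes the growing chain through an exit tunnel. Ribosomal proteins are made in near-equal numbers, although each comes from its own gene. Their mRNAs are among the most abundant of a growing cell, and most begin at a C followed by an unbroken run of pyrimidines, the 5′ terminal oligopyrimidine (TOP) tract. Through this tract and the RNA-binding protein LARP1, the kinase mTORC1 sets how strongly they are translated, and mRNA levels do not show that step.

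The TOP tract was visible at the starts of these genes. RefSeq start windows (GRCh38.p14) were at hand for 62 of the 77 members. Of these, 42 (67.7%) began with C and at least 4 further pyrimidines, against 696 of 14860 protein-coding genes (4.68%). The share was 25 of 38 in the large subunit and 17 of 24 in the small subunit. The windows below run from 10 bases before to 20 bases from the start, and capitals mark the tract. RPL13A and RPS6 are shown because they fell furthest in SUM149, RPS12 and RPS14 because their calls had opposite directions in the 2 lines, and RPL3 and RPL15 as genes that moved likewise but whose RefSeq start has no such tract.
RPL13A, chr19:49487598-49487627, plus strand: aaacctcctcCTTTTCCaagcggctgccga
RPS6, chr9:19380217-19380246, minus strand: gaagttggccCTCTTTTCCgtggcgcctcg
RPS12, chr6:132814559-132814588, plus strand: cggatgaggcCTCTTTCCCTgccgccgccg
RPS14, chr5:150449720-150449749, minus strand: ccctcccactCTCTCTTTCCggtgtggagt
RPL3, chr22:39319604-39319633, minus strand: gccgaccggcctctaccggcgggatttgat
RPL15, chr3:23916535-23916564, plus strand: tggggcctgctggaggagcttcacgcagtc
A RefSeq start is 1 position for a gene, so a gene whose start is set a few bases away counts as having no tract.

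In windows from 250 bases before to 50 bases after the start, searched on both strands, the letters CTTTCC occurred in 46.8% of the 62 members and in 26.5% of all 14860 genes. CCGGAAG, the core bound by ETS family factors, occurred in 33.9% and 14.4%. CACGTG, the E-box that MYC can bind, occurred in 4.84% and 8.94%, and TATAAA in 8.06% and 9.35%. These letters are descriptions of the windows and were not tested as binding sites. A further shared feature is that 28 of the 77 members (36.4%) host a small nucleolar RNA gene within their bounds, against 254 of 19708 protein-coding genes (1.29%).

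Depth was 16373893 to 21248768 counts in BT-549 MUC1shRNA libraries and 16332364 to 20745835 in BT-549 CshRNA libraries. It was 7931614 to 9623924 in SUM149 MUC1shRNA libraries and 19392422 to 24140623 in SUM149 CshRNA libraries. The SUM149 control group was thus 2.44 times as deep. Values in CPM below are counts scaled to a common library size, with 1 set of TMM factors over all 12 libraries. The targeted gene MUC1 had 3.60, 6.02 and 4.28 CPM in MUC1shRNA cells, against 51.9, 53.7 and 54.3 CPM in CshRNA cells in BT-549, and 1.06, 0.334 and 0.482 CPM in MUC1shRNA cells, against 16.4, 16.6 and 12.1 CPM in CshRNA cells in SUM149. The epithelial marker EPCAM was at 0 to 0.627 CPM in BT-549 and at 381 to 456 CPM in SUM149, while the mesenchymal VIM was at 1432 to 1627 and at 28.7 to 35.9 CPM. Epithelial CDH1 (0.332 to 1.72 and 179 to 230 CPM) and KRT5 (10.8 to 16.6 and 133 to 284 CPM) were also lower in BT-549. Epithelial keratins were not absent there, with KRT18 at 270 to 726 CPM in BT-549 and 380 to 447 CPM in SUM149. KRT8 was at 43.2 to 303 and 544 to 629 CPM. CD3E, a T cell marker, had no count in any library, but other leukocyte and endothelial genes had some. PTPRC was at 0 to 1.40 CPM and CD14 at 0.720 to 4.95 CPM over all libraries. Endothelial PECAM1 was at most 0.066 CPM in BT-549. In SUM149 it was at 8.96 to 10.5 CPM with MUC1shRNA and 26.0 to 29.8 CPM with CshRNA. The other endothelial markers looked at were near 0, with VWF at most 0.685 CPM and CDH5 at most 0.118 CPM in any library. BT-549 CshRNA 3, BT-549 MUC1shRNA 2 and SUM149 CshRNA 3 lay apart from the rest of their groups.

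The ribosomal protein genes together took a smaller share of all counts in SUM149 after MUC1 silencing. The share was 3.73%, 4.10% and 4.07% in SUM149 MUC1shRNA libraries, against 5.06%, 5.52% and 5.40% in SUM149 CshRNA libraries. These groups did not overlap, with means of 3.96 ± 0.20% and 5.32 ± 0.24% (SD, n = 3 each). In BT-549 the share was 4.33%, 4.62% and 4.21% with MUC1shRNA, against 4.50%, 4.65% and 5.09% with CshRNA. Here the groups overlapped, with means of 4.38 ± 0.21% and 4.75 ± 0.31% (SD, n = 3 each). The 3 SUM149 MUC1shRNA libraries had the lowest shares of all 12. In bulk RNA, fewer cells of a kind and less RNA per cell cannot be told apart, and a share falls when other transcripts take more.

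The SUM149 difference was -1.36 percentage points. Mitochondrial transcripts took 5.08% to 5.95% of counts with MUC1shRNA and 5.38% to 6.46% with CshRNA. Over nuclear protein-coding counts alone, the ribosomal share was 4.25 ± 0.23% with MUC1shRNA and 5.76 ± 0.23% with CshRNA (SD, n = 3 each). RPS6 by itself accounted for 0.331%, 0.387% and 0.376% of counts with MUC1shRNA, against 0.582%, 0.747% and 0.567% with CshRNA. Without RPS6 the difference in share was -1.09 points.

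The 2 subunits moved by similar amounts in SUM149. Large-subunit genes took 2.29 ± 0.11% of counts with MUC1shRNA and 3.00 ± 0.11% with CshRNA, and small-subunit genes took 1.67 ± 0.09% and 2.33 ± 0.14% (SD, n = 3 each). The ratio of large to small counts was 1.37 ± 0.01 with MUC1shRNA and 1.29 ± 0.04 with CshRNA (SD, n = 3 each), and the groups did not overlap. Without RPS6 alone the ratios were 1.75 ± 0.02 with MUC1shRNA and 1.77 ± 0.03 with CshRNA (SD, n = 3 each). In BT-549 the ratio was 1.504 ± 0.023 with MUC1shRNA and 1.484 ± 0.027 with CshRNA (SD, n = 3 each).

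**Figure D1:**
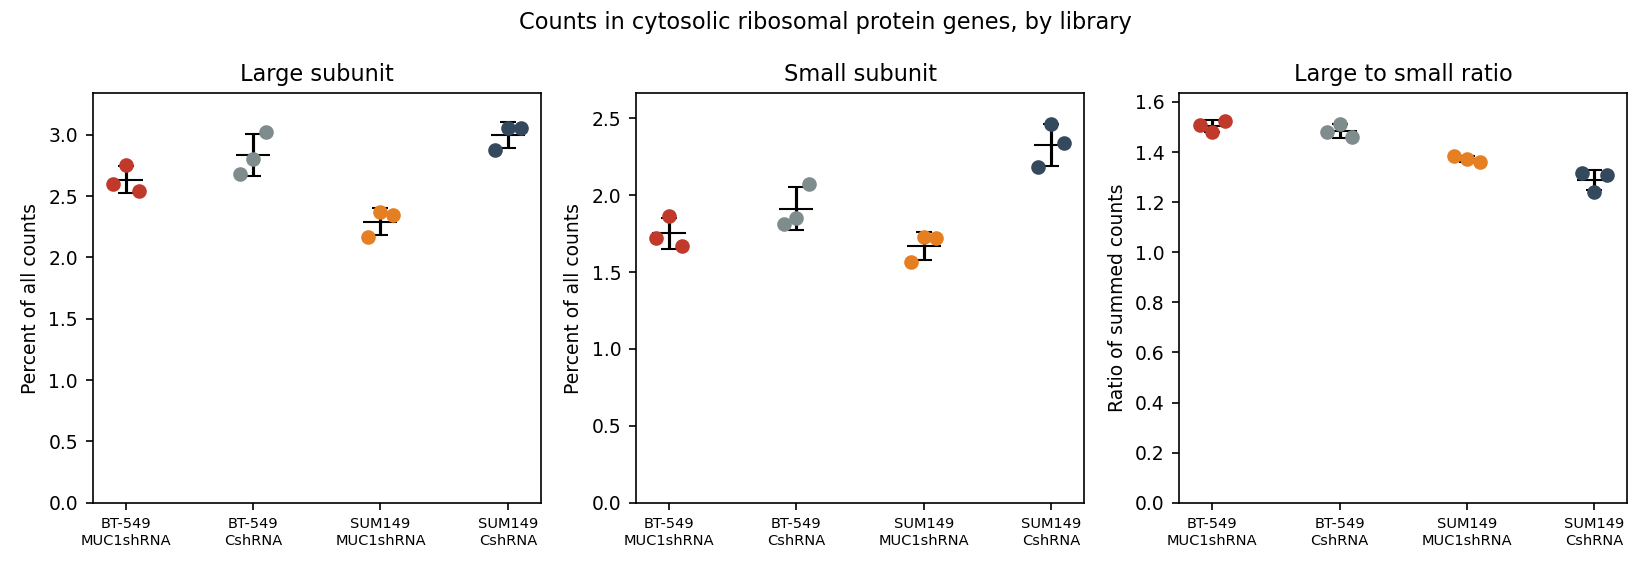
Percentage of all counts in large-subunit genes (left) and small-subunit genes (middle), and the ratio of their summed counts (right), in the 4 groups. Points are libraries, horizontal marks are means and bars are SD over 3 libraries. The SUM149 MUC1shRNA libraries lie below all other groups in the large-subunit share, at 2.16% to 2.37%.

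The per-gene comparison in SUM149 asked how each ribosomal protein gene changed with MUC1 silencing. Of the 77 members, 54 fell and 1 rose, and 22 did not pass the test. Over all 14178 genes tested, 28.9% fell and 27.6% rose. The members' median log2 fold change, MUC1shRNA over CshRNA, was -0.31, about 0.81-fold, against a median of -0.03 over all genes tested. The middle 50% of members lay between -0.39 and -0.15, and 72 of 77 values were negative. By subunit, 33 of 46 large-subunit genes fell (median -0.34), as did 21 of 31 small-subunit genes (median -0.29). The difference of these medians, -0.04, was 0.01 without SUM149 CshRNA 3. The 3 libraries of each group did not overlap for 57 members (74%), against 62.5% of all genes tested. Of these, 2 were higher with MUC1shRNA (30.3% of all genes) and 55 lower (32.2%). Other protein-coding genes of at most 1000 exon bases had a median of 0.11. For other nuclear protein-coding genes at or above the lower quartile of the members' mean CPM it was 0.13. Neither set was matched to the members. Many members have over 1000 exon bases, and the set chosen by level has no upper bound. Leaving out any 1 library gave 50 to 60 members past the test.

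The largest falls in SUM149 were at RPL13A, RPS6 and RPL3. RPL13A is a large-subunit protein that can leave the ribosome in interferon-treated myeloid cells and block translation of inflammatory mRNAs (ENSG00000142541.16, GRCh38 chromosome 19, 49487554 to 49492308, plus strand). It had 630.5, 746 and 695 CPM in MUC1shRNA cells, against 1241, 1358 and 1202 CPM in CshRNA cells, a log2 fold change of -0.86 (SE 0.07, adjusted p = 6.1e-07). RPS6, the ribosomal protein phosphorylated by S6 kinases downstream of mTORC1 (ENSG00000137154.12, chromosome 9, 19375715 to 19380254, minus strand), had 3099, 3621 and 3492 CPM in MUC1shRNA cells, against 5389.7, 6847 and 5089 CPM in CshRNA cells. Its log2 fold change was -0.75 (SE 0.10, adjusted p = 2.6e-05), and SUM149 CshRNA 2 was the highest of its group. For both genes the MUC1shRNA and CshRNA values did not overlap.

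RPL3 reaches with a long extension toward the peptidyl transferase centre, where the peptide bond forms (ENSG00000100316.15, chromosome 22, 39312882 to 39320389, minus strand). It had 837, 899.6 and 864 CPM in MUC1shRNA cells, against 1426, 1502 and 1452 CPM in CshRNA cells in SUM149, a log2 fold change of -0.74 (SE 0.06, adjusted p = 2.7e-07). RPL10A, which lies at the L1 stalk where the used tRNA leaves, had 359, 354 and 371 CPM in MUC1shRNA cells, against 531, 558 and 551 CPM in CshRNA cells, a log2 fold change of -0.58 (SE 0.06, adjusted p = 2.3e-06). The groups did not overlap for either gene, and neither call was lost when a library was left out.

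RPL23A alone rose in SUM149. Its protein sits beside the tunnel exit, where the signal recognition particle docks (ENSG00000198242.13, chromosome 17, 28719393 to 28724359, plus strand). It had 90.0, 81.7 and 91.8 CPM in MUC1shRNA cells, against 71.1, 70.4 and 79.2 CPM in CshRNA cells, without overlap, and its log2 fold change was 0.27 (SE 0.07, adjusted p = 0.0062). RPL23A has 91 annotated pseudogenes, and 16.6% of the counts assigned to it or to them fell on the pseudogenes, so reads of near-identical copies may have been lost or moved in the authors' counting. Its level is therefore uncertain.

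In BT-549, 15 members fell and 4 rose, and 58 did not pass the test, against 16.5% and 16.8% of all 13200 genes tested. The share of members that fell, 19.5%, was near that background, and the share that rose, 5.19%, was below it. The median was -0.12 over the 77 members and -0.01 over all genes tested, with 64 negative values. Without CshRNA 3 the members' median was -0.05. Large-subunit genes fell in 8 and rose in 2 of 46 (median -0.11), and small-subunit genes fell in 7 and rose in 2 of 31 (median -0.15). The groups did not overlap for 24 members (31.2%), against 47.1% of all genes tested. Of these, 5 were higher (23.6% of all genes) and 19 lower (23.5%). With upper-quartile scaling, 15 fell and 1 rose, and without CshRNA 3, 7 fell and 7 rose. Only 3 members passed without BT-549 MUC1shRNA 1 and only 3 without BT-549 MUC1shRNA 3. Without both libraries that stood apart, MUC1shRNA 2 and CshRNA 3, a choice made after seeing the data, 27 fell and 7 rose. RPS3A passed as higher without CshRNA 3, at 0.39 (adjusted p = 0.00804), as did RPS18, at 0.19 (adjusted p = 0.0398).

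**Figure D2:**
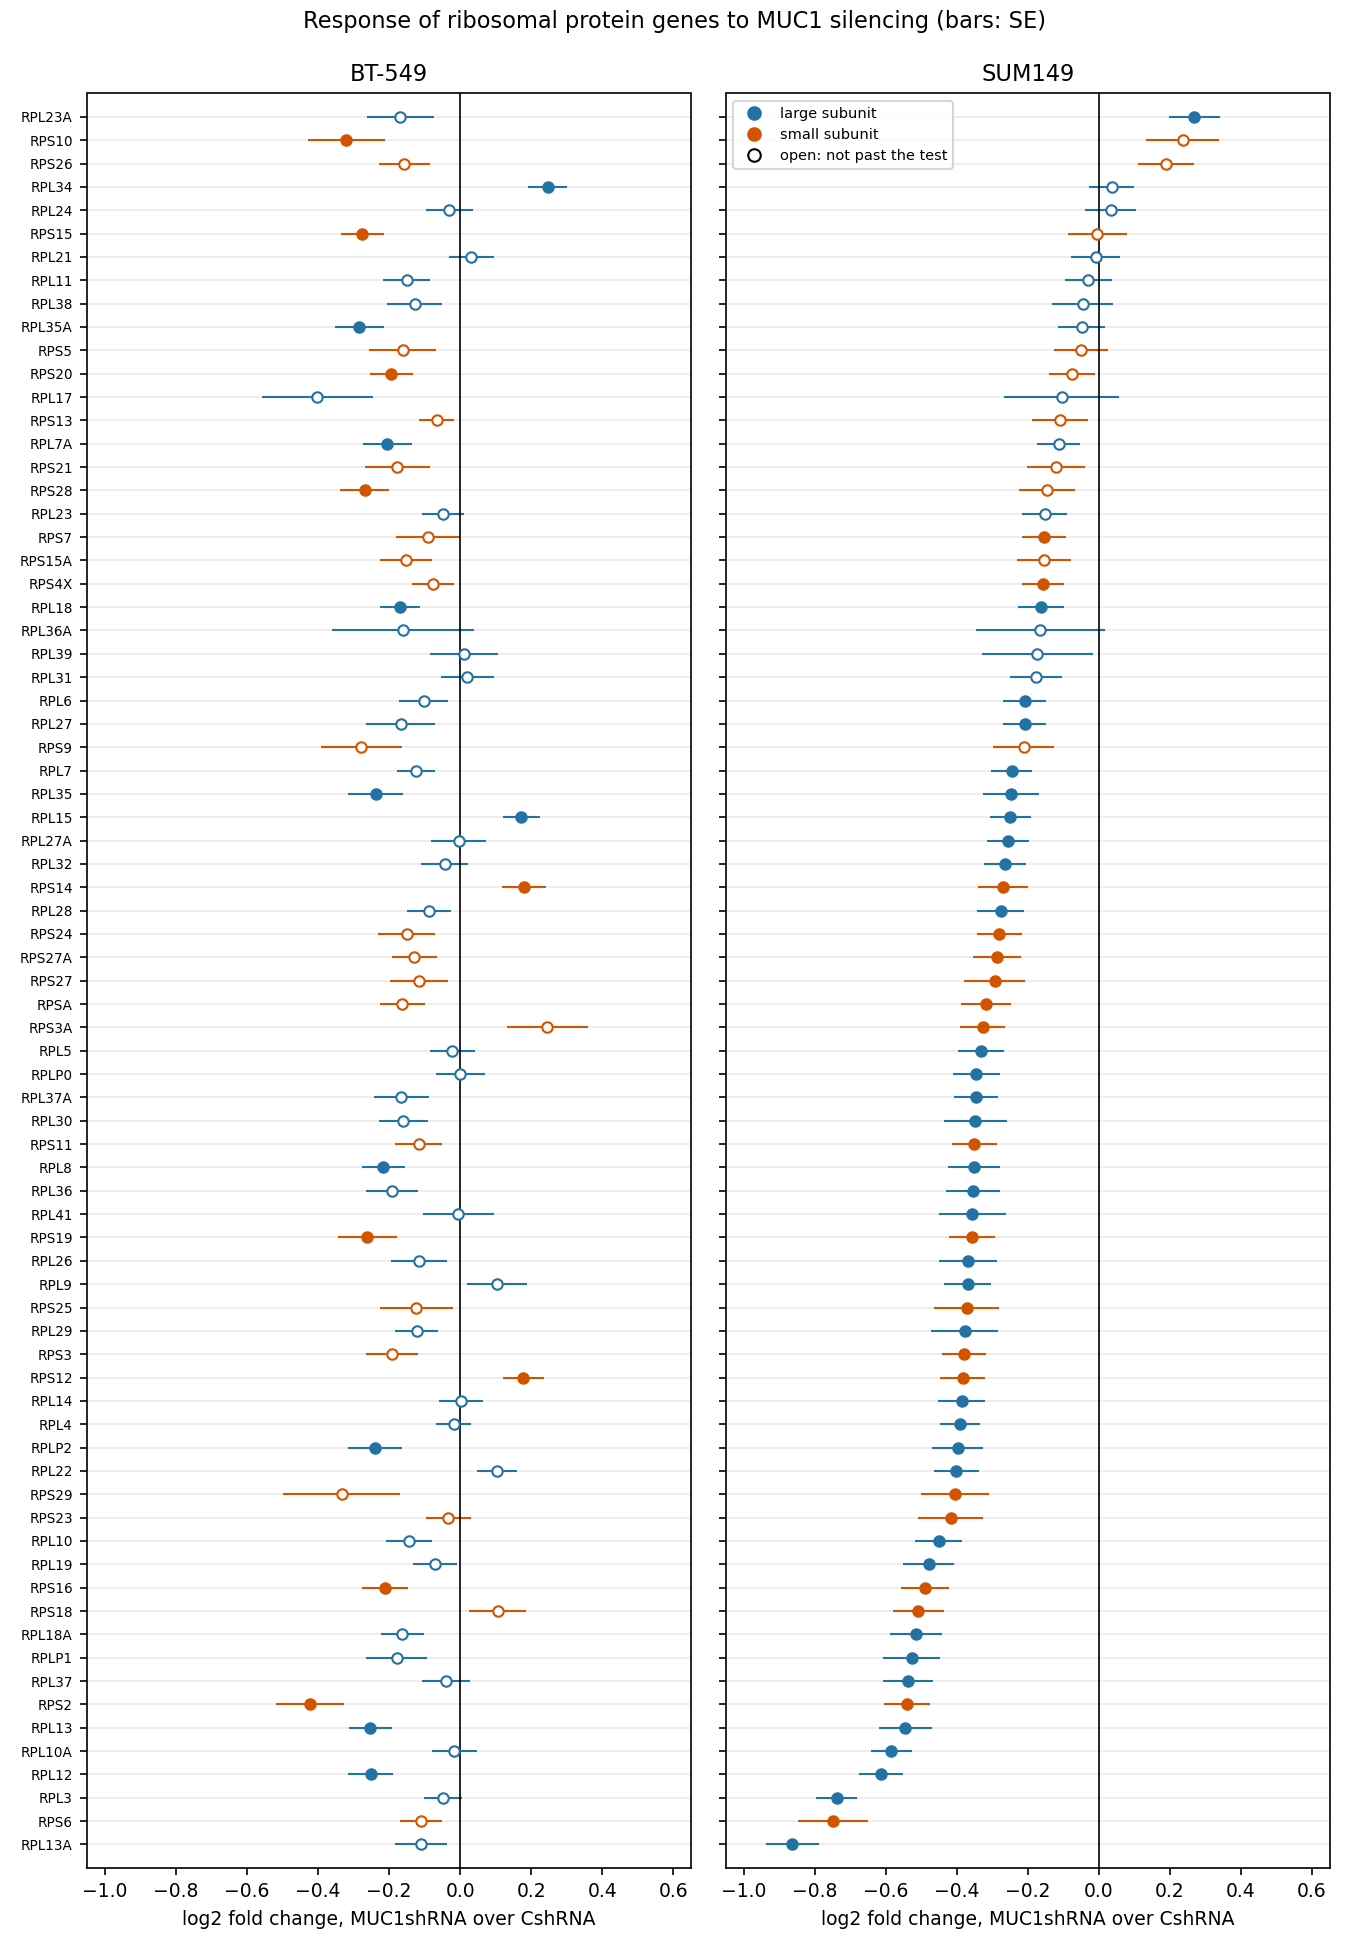
Log2 fold change (MUC1shRNA over CshRNA, horizontal axis) of 75 of the 77 ribosomal protein genes in BT-549 (left) and SUM149 (right), ordered by the SUM149 value. Filled points passed edgeR's test, open points did not, blue is large subunit, orange is small subunit and bars are SE. In SUM149 70 points lie below 0, and in BT-549 all lie between -0.42 and 0.25.

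RPS2 had the largest fall in BT-549. It lines the mRNA entry channel of the small subunit and was at 1082, 1283 and 1043 CPM in MUC1shRNA cells, against 1479, 1373 and 1706 CPM in CshRNA cells, without overlap. Its log2 fold change was -0.42 (SE 0.10, adjusted p = 0.0084), and it also fell in SUM149, by 0.54. Of the counts on RPS2 and its annotated pseudogenes together, 9.24% fell on the pseudogenes. RPS15, which reaches toward the decoding site, had 332, 345 and 327 CPM in MUC1shRNA cells, against 381, 399 and 433 CPM in CshRNA cells and a log2 fold change of -0.28 (SE 0.06, adjusted p = 0.007). In SUM149 its value was -0.004 (adjusted p = 0.97).

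RPL34, a large-subunit protein, had the largest rise in BT-549 (ENSG00000109475.16, chromosome 4, 108620566 to 108630412, plus strand). It had 277, 276 and 263 CPM in MUC1shRNA cells, against 216, 232 and 238 CPM in CshRNA cells, without overlap, a log2 fold change of 0.25 (SE 0.06, adjusted p = 0.0085). In SUM149 its value was 0.04 (adjusted p = 0.65). RPL34, RPS2 and RPS15 were the named members whose BT-549 call held in all 16 alternatives tried for that line. The other large falls in BT-549 were RPS10 at -0.32 (SE 0.11, adjusted p = 0.046), RPL35A at -0.28 (SE 0.07, adjusted p = 0.012), RPS28 at -0.27 (SE 0.07, adjusted p = 0.014) and RPS19 at -0.26 (SE 0.08, adjusted p = 0.037). The RPS10 and RPS19 calls were lost without any 1 of 4 libraries each, with adjusted p up to 0.163 for RPS10 and up to 0.143 for RPS19. Those of RPL35A and RPS28 were lost without MUC1shRNA 1 or MUC1shRNA 3, with adjusted p up to 0.0629 and 0.0694. A gene on the other strand overlaps 27.5% of the RPS28 exon bases.

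RPS12, RPS14 and RPL15 were called higher in BT-549 and lower in SUM149. The share of all genes with such opposite calls is not given here. RPS12, a small-subunit protein of the beak (ENSG00000112306.7, chromosome 6, 132814441 to 132817564, plus strand), had 679, 719 and 674 CPM in MUC1shRNA cells, against 603, 577 and 648 CPM in CshRNA cells in BT-549, a log2 fold change of 0.18 (SE 0.06, adjusted p = 0.041). In SUM149 it had 316, 325 and 333 CPM in MUC1shRNA cells, against 408, 421 and 454 CPM in CshRNA cells, a log2 fold change of -0.38 (SE 0.06, adjusted p = 0.00017). Neither line's groups overlapped. RPS14, the small-subunit gene whose loss causes the anaemia of the 5q- syndrome, had log2 fold changes of 0.18 (SE 0.06, adjusted p = 0.047) in BT-549 and -0.27 (SE 0.07, adjusted p = 0.0053) in SUM149. RPL15 lies within the large subunit and is a Diamond-Blackfan anaemia gene (ENSG00000174748.18, chromosome 3, 23916545 to 23924374, plus strand). It had 796, 831 and 776 CPM in MUC1shRNA cells, against 690.2, 698 and 738 CPM in CshRNA cells in BT-549, a log2 fold change of 0.17 (SE 0.05, adjusted p = 0.031). In SUM149 it had 665, 630.0 and 664 CPM in MUC1shRNA cells, against 768, 791 and 791 CPM in CshRNA cells, a log2 fold change of -0.25 (SE 0.06, adjusted p = 0.0023).

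The BT-549 rises of these 3 genes were small and close to the threshold. Each call was lost when any 1 library other than CshRNA 3 was left out, with adjusted p of 0.079 to 0.119 for RPS12, 0.066 to 0.142 for RPS14 and 0.056 to 0.095 for RPL15. Their SUM149 calls held when any 1 library was left out.

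The difference between the lines' responses was tested gene by gene as an interaction over all 12 libraries. It passed for 32 of the 77 members, 29 with a higher (less negative or more positive) response in BT-549 and 3 with a lower one. Over all 15649 genes tested, 39.6% passed, 19.5% higher and 20.1% lower. The share of members past the test, 41.6%, was thus near the background, while their direction was mostly 1-sided, with a median difference of 0.20 against 0.04 over all genes tested. By subunit, 20 large-subunit genes were higher and 1 lower of 46, and 9 small-subunit genes were higher and 2 lower of 31. Leaving out any 1 library gave 24 to 37 members. Of the 15 members that fell in BT-549, 9 (60%) also fell in SUM149, which is 16.7% of the 54 that fell there. Over all 77 members 70.1% fell in SUM149, so the 60% was not above the share of the members as a whole.

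The members with the smallest adjusted p for the difference were RPL3, at 0.71 (SE 0.07, adjusted p = 2.4e-06), RPL10A, at 0.58 (SE 0.08, adjusted p = 4.3e-05), and RPS12, at 0.58 (SE 0.08, adjusted p = 5.6e-05). RPL3 had 1339.9, 1394 and 1326 CPM in MUC1shRNA cells, against 1329, 1407 and 1451 CPM in CshRNA cells in BT-549, so its groups overlapped there, and its log2 fold change was -0.05 (SE 0.05, adjusted p = 0.52). RPL10A likewise overlapped in BT-549, with 529, 563 and 506 CPM in MUC1shRNA cells, against 522, 515 and 576 CPM in CshRNA cells, a log2 fold change of -0.02 (SE 0.06, adjusted p = 0.86). RPL13A had the largest difference, 0.77 (SE 0.11, adjusted p = 5.8e-05), with 1026, 1154 and 999 CPM in MUC1shRNA cells, against 1078, 1107 and 1241 CPM in CshRNA cells in BT-549. RPL22, which binds small RNAs of Epstein-Barr virus and lies on the surface of the large subunit, differed by 0.52 (SE 0.08, adjusted p = 8.7e-05). It had 183, 182 and 181 CPM in MUC1shRNA cells, against 173, 178 and 158 CPM in CshRNA cells in BT-549, and 78.9, 83.2 and 81.4 CPM in MUC1shRNA cells, against 109, 107 and 108 CPM in CshRNA cells in SUM149. The 3 genes with a lower response in BT-549 were RPS10 (-0.54, SE 0.15, adjusted p = 0.0097), RPL23A (-0.42, SE 0.13, adjusted p = 0.016) and RPS26 (-0.33, SE 0.11, adjusted p = 0.03). RPS26, which lies at the mRNA exit, lost the call when any 1 of 8 libraries was left out (adjusted p up to 0.0861), and RPL23A lost it without SUM149 MUC1shRNA 3 (adjusted p = 0.0536).

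**Figure D3:**
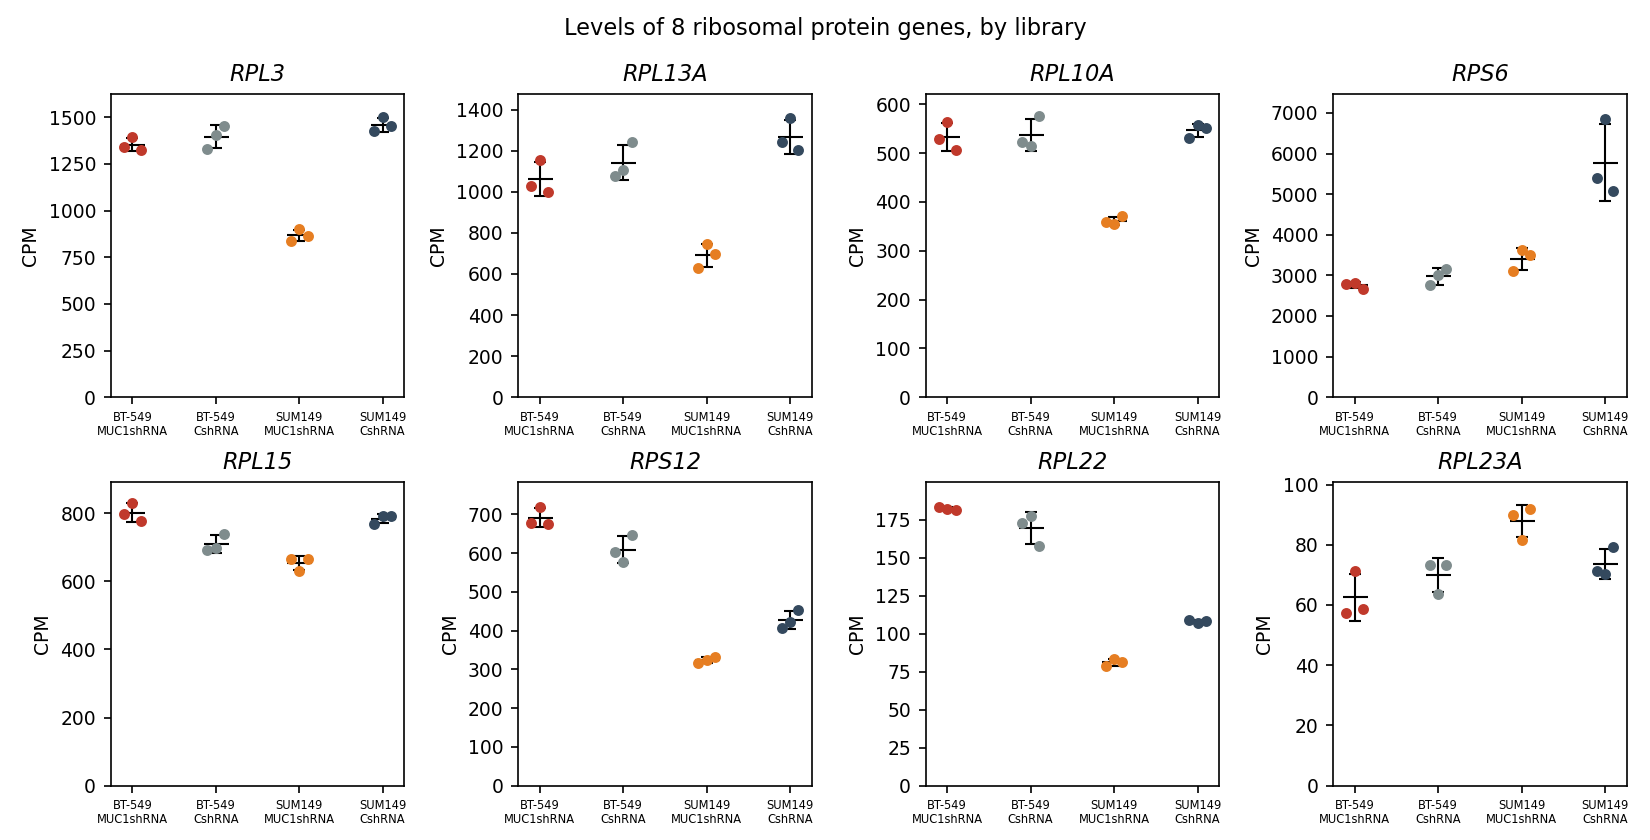
Levels in CPM (vertical axis, from 0) of 8 ribosomal protein genes in the 4 groups. Points are libraries, horizontal marks are means and bars are SD over 3 libraries. RPL3, RPL13A and RPL10A are lower with MUC1shRNA in SUM149 and overlap in BT-549, RPS12 and RPL15 move in opposite directions, and RPL23A is higher with MUC1shRNA in SUM149.

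The ribosomal stalk recruits the elongation factors. RPLP0 anchors it, RPLP1 and RPLP2 form its flexible arms, and RPL12 lies at its base. All 4 fell in SUM149, against 28.9% of all genes and 70.1% of the 77 members. There RPL12 had 621, 692 and 655 CPM in MUC1shRNA cells, against 1007, 1038 and 996 CPM in CshRNA cells, a log2 fold change of -0.61 (SE 0.06, adjusted p = 2.6e-06). RPLP1 had 458, 586 and 526 CPM in MUC1shRNA cells, against 742, 775 and 767 CPM in CshRNA cells, a log2 fold change of -0.53 (SE 0.08, adjusted p = 9.8e-05). RPLP2 fell by 0.40 (SE 0.07) and RPLP0 by 0.35 (SE 0.07). In BT-549 RPL12 (-0.25, SE 0.06, adjusted p = 0.014) and RPLP2 (-0.24, SE 0.08, adjusted p = 0.036) fell, and RPLP1 (-0.18, adjusted p = 0.14) and RPLP0 (0.0002, adjusted p = 0.998) did not pass the test. RPLP1 passed without MUC1shRNA 2 (adjusted p = 0.0429). The BT-549 call of RPL12 was lost without MUC1shRNA 1 or MUC1shRNA 3 (adjusted p up to 0.0641), and that of RPLP2 without any 1 of 4 libraries (adjusted p up to 0.147).

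RPL5 and RPL11 carry the 5S ribosomal RNA into the large subunit and, when unassembled, bind MDM2, the ubiquitin ligase of p53. In SUM149, RPL5 had 1217, 1301 and 1285 CPM in MUC1shRNA cells, against 1587, 1724 and 1520.1 CPM in CshRNA cells, a log2 fold change of -0.33 (SE 0.06, adjusted p = 0.00068). RPL11 had 902, 1011 and 1029 CPM in MUC1shRNA cells, against 999, 1058 and 974 CPM in CshRNA cells, and its value was -0.03 (SE 0.07, adjusted p = 0.73). Neither passed in BT-549, at -0.02 for RPL5 and -0.15 for RPL11. Without BT-549 CshRNA 1, RPL11 passed there (adjusted p = 0.0243).

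Around the tRNA sites of the large subunit, 4 of 5 genes fell in SUM149, against 28.9% of all genes and 70.1% of the 77 members. They were RPL3 and RPL10A as above, RPL10 (-0.45, SE 0.07), which joins the subunit late in its assembly, and RPL8 (-0.35, SE 0.07), which touches the peptidyl transferase region. RPL36A, at -0.17 (adjusted p = 0.46), had 966 counts over all libraries, and a same-strand gene covers 26.6% of its exon bases. In RPL10, 61.3% of the exon bases overlap a gene on the other strand. RPL8 fell in BT-549 (-0.22, SE 0.06, adjusted p = 0.022), a call lost without MUC1shRNA 1 or MUC1shRNA 3 (adjusted p up to 0.0917), and the other 4 did not pass there. Without BT-549 MUC1shRNA 2, RPL10 passed (adjusted p = 0.0201).

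Of 12 genes that line the exit tunnel or its rim, 6 fell and 1, RPL23A, rose in SUM149, and 1, RPL35, fell in BT-549. Of all genes tested, 28.9% fell and 27.6% rose in SUM149, and 16.5% fell in BT-549. Of the 77 members, 70.1% fell in SUM149 and 19.5% in BT-549, so these 12 fell less often than the members as a whole. RPL35 had a log2 fold change of -0.24 (SE 0.08, adjusted p = 0.04) in BT-549, where its groups overlapped, a call lost without any 1 of 5 libraries (adjusted p up to 0.117), and its SUM149 call was lost without CshRNA 2 or MUC1shRNA 1 (adjusted p up to 0.0811). RPL4, which narrows the tunnel, had log2 fold changes of -0.39 (SE 0.06) in SUM149 and -0.02 (adjusted p = 0.81) in BT-549. RPL37 fell in SUM149 by 0.54 (SE 0.07) and RPL19 by 0.48 (SE 0.07). RPL39, which lines the lower tunnel, had only 10.5, 14.6 and 13.8 CPM in MUC1shRNA cells, against 14.3, 12.1 and 17.9 CPM in CshRNA cells and a value of -0.17 (SE 0.16, adjusted p = 0.36). RPL38, which is needed for translation of Hox mRNAs in mouse embryos, did not pass in either line (-0.13 in BT-549 and -0.05 in SUM149), and 43.2% of its exon bases overlap a gene on the other strand. RPL17 had 960 counts in all, and same-strand genes cover 47.6% of its exon bases.

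Among 9 genes of the decoding centre and mRNA channel of the small subunit, 4 fell in SUM149 (RPS2, RPS3, RPS14 and RPS23). In BT-549, RPS2, RPS15 and RPS28 fell and RPS14 rose. The shares over all genes were 28.9% fallen in SUM149, and 16.5% fallen and 16.8% risen in BT-549. Over the 77 members they were 70.1% fallen in SUM149, above the 4 of 9 here, and 19.5% fallen and 5.19% risen in BT-549. RPS3, at the mRNA entry, fell by 0.38 (SE 0.06) in SUM149, and it passed in BT-549 without MUC1shRNA 2 (adjusted p = 0.0338). RPS23, which takes part in proofreading of the codon, had 67.4, 75.1 and 73.7 CPM in MUC1shRNA cells, against 88.6, 90.3 and 113 CPM in CshRNA cells there, a log2 fold change of -0.42 (SE 0.09, adjusted p = 0.0017). RPS26 had values of -0.16 in BT-549 (adjusted p = 0.12) and 0.19 in SUM149 (adjusted p = 0.054). It passed in SUM149 without CshRNA 3 (adjusted p = 0.0285) or MUC1shRNA 1 (adjusted p = 0.0102), and in BT-549 without CshRNA 1 (adjusted p = 0.0218).

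RPS27A, made as a fusion to ubiquitin, fell in SUM149 by 0.29 (SE 0.07) and was at -0.13 (adjusted p = 0.14) in BT-549. RPSA, also known as a laminin receptor, fell in SUM149 by 0.32 (SE 0.07), and RPS25, used by some viral internal ribosome entry sites, by 0.37 (SE 0.09). A gene on the other strand overlaps 35.1% of the RPS25 exon bases. RPS27 fell there by 0.29 (SE 0.09), a call lost without SUM149 MUC1shRNA 1 (adjusted p = 0.0516). RPS4X, the X-linked form of its protein, fell by only 0.16 (SE 0.06), and its call was lost without any 1 of 5 libraries (adjusted p up to 0.175). None of these 5 passed in BT-549. RPSA passed there without MUC1shRNA 2 (adjusted p = 0.0248).

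Diamond-Blackfan anaemia is an inherited failure of red cell production caused by loss of 1 copy of a ribosomal protein gene. Of 18 such genes, 12 fell and none rose in SUM149 (median -0.23), and 6 fell and 1, RPL15, rose in BT-549 (median -0.15). Over all genes tested, 28.9% fell in SUM149 and 16.5% in BT-549. Over the 77 members the shares were 70.1% and 19.5%. Without BT-549 MUC1shRNA 1 or MUC1shRNA 3, 0 of the 18 fell and 0 rose there, and without CshRNA 1, 10 fell. RPS19, the gene most often mutated, had 310.4, 343 and 338 CPM in MUC1shRNA cells, against 413, 423 and 447 CPM in CshRNA cells in SUM149, a log2 fold change of -0.36 (SE 0.06, adjusted p = 0.00037), and in BT-549 its groups overlapped with 448, 523 and 448 CPM in MUC1shRNA cells, against 564, 514 and 618 CPM in CshRNA cells. RPS10 was at 17.9, 17.0 and 15.6 CPM in MUC1shRNA cells, against 13.6, 14.5 and 15.2 CPM in CshRNA cells in SUM149, without overlap but at 0.24 (adjusted p = 0.067). It passed there without CshRNA 3 (adjusted p = 0.0489). A read-through gene on the same strand covers 55.6% of the RPS10 exon bases, and pseudogenes hold 17.3% of its joint counts, so its level is uncertain.

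Members with and without a TOP tract or a small nucleolar RNA gene were compared as a description. In SUM149, 29 of the 42 members with a tract at the RefSeq start fell (median -0.32), as did 15 of the 20 without one (median -0.26). Over all genes tested there, 28.9% fell. Members that host a small nucleolar RNA gene fell in 20 of 28 cases, and the others in 34 of 49. In BT-549, 9 of the 42 with a tract and 3 of the 20 without one fell, near the 16.5% of all genes that fell there. Other splits were less alike. In the interaction, 15 of 28 hosts and 14 of 49 others had a higher response in BT-549, against 19.5% of all genes. Between control cells, 24 of 42 members with a tract and 5 of 20 without one were higher in BT-549 (39.5% of all genes). There 11 of 42 and 8 of 20 were lower (43.3% of all genes). None of these splits was tested.

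Among the paralogs outside the member rule, 3 of 8 rose and 1 fell in SUM149, and 1 rose and 2 fell in BT-549. Of all genes tested, 27.6% rose and 28.9% fell in SUM149, and 16.8% rose and 16.5% fell in BT-549, so counts this small do not set the paralogs apart. RPL22L1, a paralog of RPL22, fell in both lines, by 0.47 (SE 0.11) in BT-549 and 0.85 (SE 0.15) in SUM149, where it had 33.6, 31.5 and 34.7 CPM in MUC1shRNA cells, against 53.6, 49.2 and 79.3 CPM in CshRNA cells. RPL36AL, the paralog of RPL36A, rose in SUM149 with 128, 141 and 135 CPM in MUC1shRNA cells, against 87.5, 95.9 and 100.3 CPM in CshRNA cells, a log2 fold change of 0.52 (SE 0.07, adjusted p = 3.7e-05), as did RPL26L1 (0.35) and RPL7L1 (0.32). RPS27L rose (0.27) and RPL39L fell (-0.38) in BT-549, and the RPS27L call was lost without any 1 of 3 libraries (adjusted p up to 0.112). FAU, whose fused product gives 1 ribosomal protein, did not pass in either line, with values of -0.08 in BT-549 and 0.0001 in SUM149.

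Mitochondrial ribosomal proteins, which build the separate ribosome of mitochondria, rose in 28 and fell in 8 of 78 cases in SUM149, with a median of 0.08, against 27.6% risen and 28.9% fallen over all genes. The rises were 19 of 49 in its large and 9 of 29 in its small subunit. MRPL18 (0.87, SE 0.07) and MRPL14 (0.87, SE 0.09) were among those that rose, and MRPS10 (-0.67, SE 0.06) among those that fell. Leaving out 1 SUM149 library gave 22 to 33 that rose and 5 to 7 that fell, with 5 without MUC1shRNA 3. In BT-549, 9 rose and 10 fell, with a median of -0.04, which was 0.01 without CshRNA 3. Without MUC1shRNA 1, 4 rose and 6 fell there.

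A list of 12 genes was built around chaperones that escort single ribosomal proteins before assembly. It is broader than such escorts, since it takes in LTV1 and NACA, whose roles are given below. In SUM149, 7 of the 12 rose and 1 fell, against 27.6% and 28.9% of all genes, and both counts held without any 1 library. NACA, BTF3 and NAP1L1 of this list are also counted among the other TOP mRNAs. GRWD1, the chaperone of RPL3, had 70.1, 76.1 and 67.5 CPM in MUC1shRNA cells, against 49.7, 46.9 and 44.5 CPM in CshRNA cells, a log2 fold change of 0.61 (SE 0.08, adjusted p = 1.6e-05), against the fall of RPL3 given above. BCCIP, which escorts RPL23, rose by 0.59, LTV1, which acts in 40S maturation, by 0.57, HEATR3 of the RPL5 and RPL11 pathway by 0.32, and TSR2, which escorts RPS26, by 0.28. NACA, a subunit of the nascent chain complex at the tunnel exit, fell by 0.47. In BT-549, 1 of the 12 rose and 3 fell, including HEATR3 (-0.22) and AAMP (-0.26), which rose in SUM149 (0.26). Without BT-549 MUC1shRNA 1 or MUC1shRNA 3, 0 of the 12 passed in BT-549.

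Other mRNAs with a TOP tract fell in SUM149 in 10 of 19 cases, and 1 rose (median -0.18), against 28.9% and 27.6% of all genes. EEF1A1, the elongation factor that delivers tRNAs, had 1970.4, 2007 and 2044 CPM in MUC1shRNA cells, against 3579, 3741 and 3451 CPM in CshRNA cells, a log2 fold change of -0.83 (SE 0.06, adjusted p = 7.1e-08). TPT1 fell by 0.69 (SE 0.06), EEF2, the translocation factor, by 0.47 (SE 0.06), and RACK1, a scaffold bound to the small subunit, by 0.41 (SE 0.06). In BT-549, 4 rose and 4 fell, near the 16.8% and 16.5% of all genes, and EEF1A1 was among the rises, with 4562, 4483 and 4579 CPM in MUC1shRNA cells, against 3874, 4001 and 4179 CPM in CshRNA cells, a log2 fold change of 0.17 (SE 0.05, adjusted p = 0.023). TPT1 (0.21) and EIF4B (0.16) also rose there, and EIF4B fell in SUM149 (-0.48). Without BT-549 MUC1shRNA 1 or MUC1shRNA 3, 0 of the 19 rose and 1 fell in BT-549, so that none of these rises held.

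Of 17 regulators of mTORC1 and of TOP mRNAs, 5 rose and 9 fell in SUM149, and 3 rose and 4 fell in BT-549. Over all genes, 27.6% rose and 28.9% fell in SUM149, and 16.8% rose and 16.5% fell in BT-549. The share of the list that rose was thus near the background in both lines. The share that fell was above it, at 52.9% in SUM149 and 23.5% in BT-549. Leaving out 1 library gave 7 to 9 that fell in SUM149 and 2 to 4 in BT-549. LARP1 fell in SUM149 (-0.36, SE 0.07) and rose in BT-549 (0.18, SE 0.05), and the BT-549 call was lost without any 1 of 3 libraries (adjusted p up to 0.076). EIF4EBP1, a translation repressor that mTORC1 inactivates, fell in both (-0.20 in BT-549 and -0.86 in SUM149), the BT-549 call being lost without any 1 of 5 libraries (adjusted p up to 0.0822). SESN2, a leucine sensor that restrains mTORC1 and is induced by amino acid stress, fell in SUM149 by 3.07 (SE 0.12) and rose in BT-549 by 0.61 (SE 0.07). DDIT4, another mTORC1 inhibitor, fell by 1.61 (SE 0.07) in SUM149, and MTOR itself rose there by 0.62 (SE 0.07). Whether mTORC1 activity differed was not measured.

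**Figure D4:**
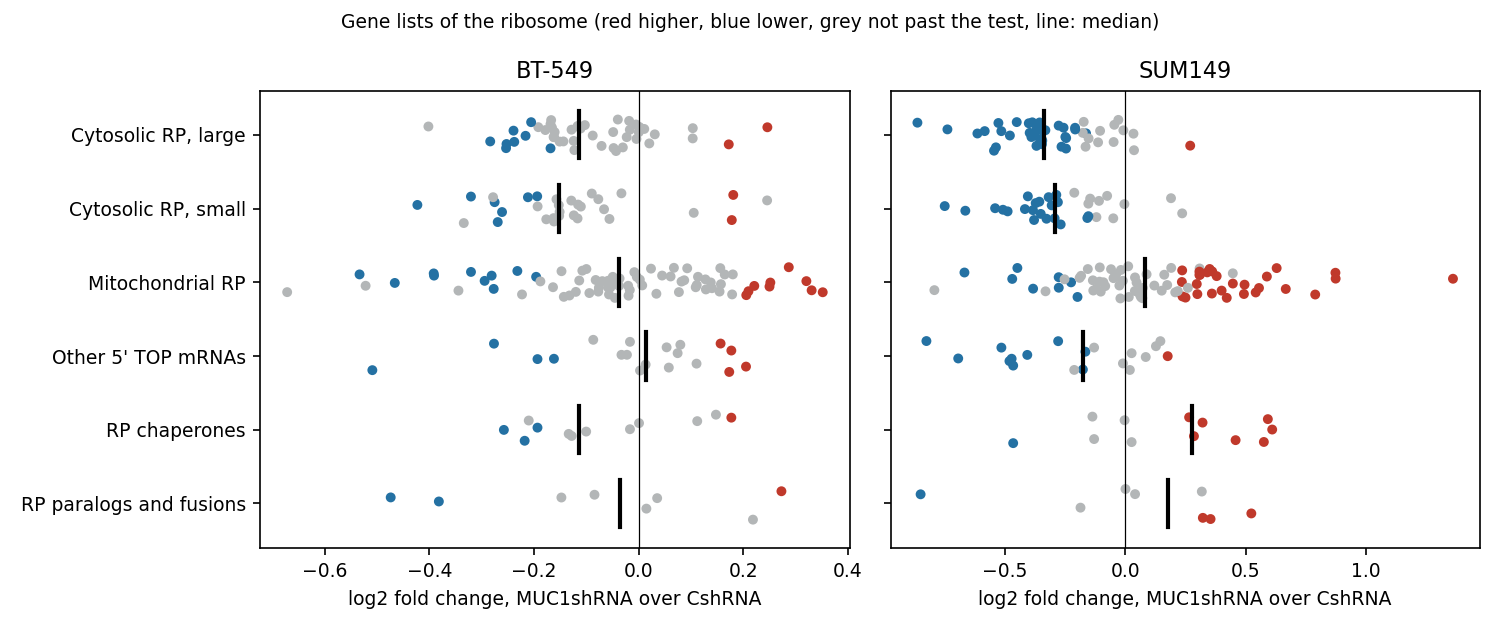
Log2 fold change (MUC1shRNA over CshRNA, horizontal axis) of single genes in 6 groups of genes of the translation machinery, in BT-549 (left) and SUM149 (right). Red passed the test as higher, blue as lower, grey did not pass, and the black line is the group's median. In SUM149 the medians were -0.34 and -0.29 for the cytosolic subunits, 0.08 for mitochondrial ribosomal proteins and -0.18 for other TOP mRNAs. The 2 horizontal axes differ in range.

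The control cells of the 2 lines were compared with each other. Between BT-549 CshRNA and SUM149 CshRNA, 38 members were higher and 21 lower in BT-549, against 39.5% and 43.3% of all 15155 genes tested. A total of 59 members passed (76.6%), against 82.8% of all genes. The groups did not overlap for 58 members, 38 higher and 20 lower in BT-549, against 84.7%, 40.3% and 44.4% of all genes. The shares of members past the test and without overlap were thus below the background. Small-subunit genes were higher in 19 and lower in 8 of 31 (median 0.36), and large-subunit genes were higher in 19 and lower in 13 of 46 (median 0.01). With upper-quartile scaling, which moved the median of all genes by over 0.1, to -0.20 in place of -0.07, 32 members were higher and 30 lower, and the medians were 0.23 for the small and -0.13 for the large subunit. Line, medium and the naming of the controls cannot be told apart in this comparison.

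RPL37, near the tunnel exit, was furthest above in BT-549 controls, with 797, 919 and 947 CPM in BT-549 controls, against 273, 285 and 308 CPM in SUM149 controls, a log2 ratio of 1.62 (SE 0.08, adjusted p = 6.3e-08). RPS23 followed, with 286, 289 and 305 CPM in BT-549 controls, against 88.6, 90.3 and 113 CPM in SUM149 controls, a log2 ratio of 1.59 (SE 0.09, adjusted p = 2e-07). RPS20 had 1.57 (SE 0.07) and RPL39 1.49 (SE 0.15). RPS6 was furthest below, with 2753, 3015 and 3152 CPM in BT-549 controls, against 5389.7, 6847 and 5089 CPM in SUM149 controls, a log2 ratio of -0.96 (SE 0.11, adjusted p = 2.9e-05). RPS3A and RPLP1 had log2 ratios of -0.90 (SE 0.12) and -0.78 (SE 0.08). The groups did not overlap for any of these 7 genes. All 4 stalk genes were lower in BT-549 controls, from -0.78 to -0.41.

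**Figure D5:**
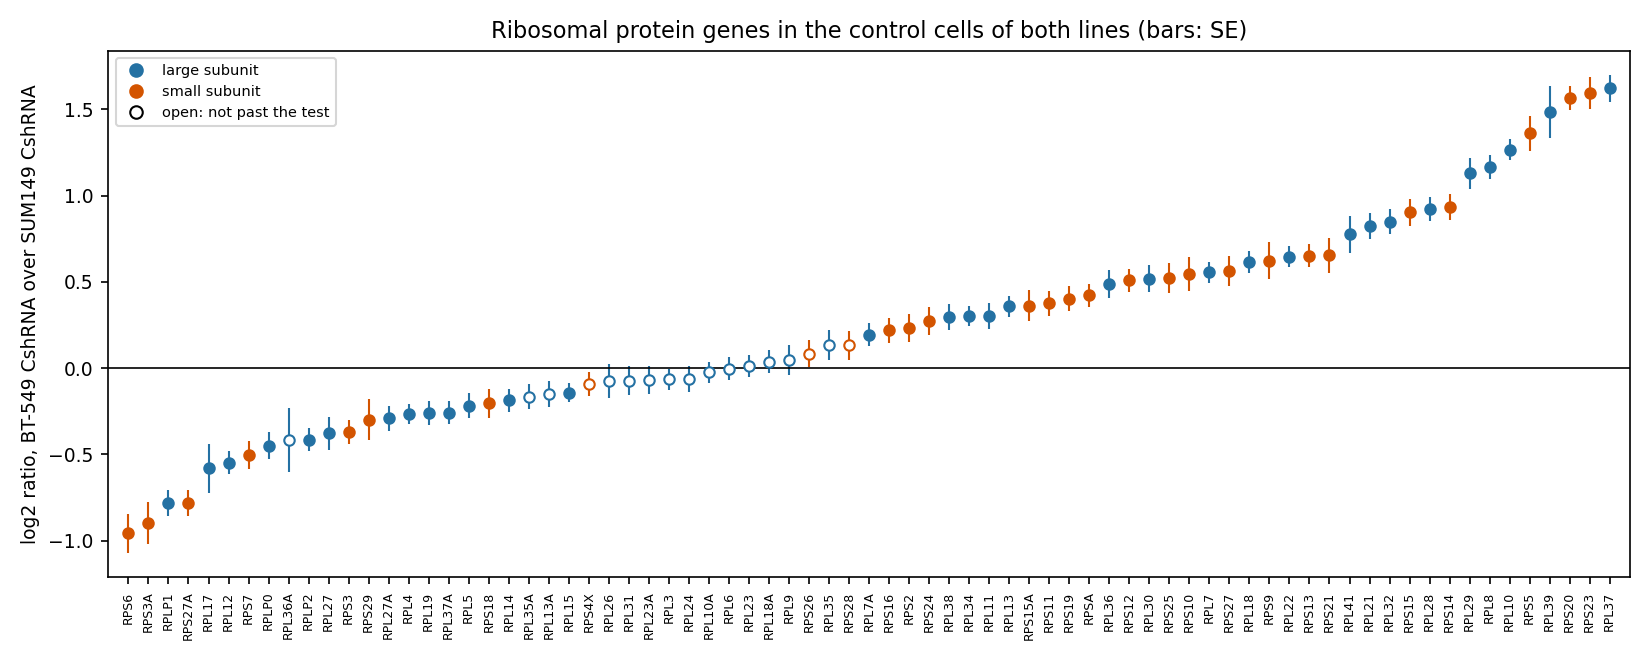
Log2 ratio of BT-549 CshRNA over SUM149 CshRNA (vertical axis) for 75 of the 77 ribosomal protein genes, ordered by value. Filled points passed edgeR's test, open points did not, blue is large subunit, orange is small subunit and bars are SE. Values run from -0.96 at RPS6 to 1.62 at RPL37.

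The members' mRNA levels per annotated length differed widely. Per kilobase of merged exons, averaged over the 4 groups, RPS6 was the highest at 1476 CPM per kb, and other high levels were RPL8 at 1343, RPL5 at 1298 and RPS18 at 1263. Per kilobase of the principal transcript, a choice made after seeing the data, RPS6 was again the highest, at 2688, and RPL8 was at 1677. Such levels depend on the annotated lengths, which ran from 344 to 7686 bases for the principal transcripts. RPL37, the longest of these, was at 888 CPM in BT-549 controls but at 111 CPM per kb of merged exons. How much of the differences comes from the annotation was not tested. The lowest by either length were RPL17 and RPL36A, both overlapped by other genes on the same strand. Spread between libraries of a group was small, with a median coefficient of variation over the members of 4.80% in BT-549 MUC1shRNA, 7.67% in BT-549 CshRNA, 5.85% in SUM149 MUC1shRNA and 5.53% in SUM149 CshRNA. Annotated pseudogenes number 1132 for these genes and took 0.471% to 0.739% of the counts of members and pseudogenes in a library.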

How the data were processed

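The authors deposited 1 table of raw read counts per gene for the 12 libraries. Per the labels' protocols, Trizol RNA went into TruSeq Stranded mRNA libraries. Of tools and builds, GRCh38.p7, STAR 2.7.0, CASAVA 1.8.2 and DESeq2 1.24.0 appear in the submitters' processing notes. No source used here gives the strand setting of the counting, so reads of overlapping antisense genes may not be separated.

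Columns were matched to samples by the sample descriptions, which equal the column names, and groups were read from the titles. Of 58037 lines, 45 duplicates of the pseudoautosomal region on chromosome Y were left out. Gene symbols, lengths and pseudogenes came from GENCODE 29 (57388 IDs matched, 604 did not). Counts were tested in R 4.3.3 with edgeR 4.0.16: filterByExpr, TMM factors and the quasi-likelihood test, with Benjamini-Hochberg adjustment over all genes tested and a threshold of 0.05 on adjusted p. Each line was fitted alone, the interaction over all 12 libraries, and the control cells of both lines against each other. All 77 members passed the filter in each comparison. "Rose" and "fell" mean past this threshold. The code was tested on simulated data. A few genes are counted in all totals but not reported here by name.

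Named were the 6 members furthest up and the 6 furthest down past the test in each line, the 3 highest per kilobase, the 8 with the smallest interaction adjusted p, the 4 furthest up and down between control cells, a fixed set of 19 members, those with opposite calls and those past the test in the lists by role. RPL17 and RPL36A, which passed in neither line's response to silencing, were named after their values were seen. The members and lists were chosen with earlier results of these data known. Alternatives were RLE and upper-quartile scaling, TMM without the members, no filter, 5 CPM in 3 libraries, DESeq2 1.42.0, limma-voom (limma 3.58.1), all 12 libraries in 1 fit, a replicate block and leaving out each library, which was also applied to the lists, a choice made after seeing the data. Depth limits the SUM149 MUC1shRNA libraries most.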

Additional observations from a re-analysis of the deposited data

Results flagged for a closer look

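Flagged here are responses to MUC1 silencing that differed between the lines by edgeR's interaction test, given as the BT-549 minus the SUM149 log2 fold change. The difference passed for 32 of the 77 ribosomal protein genes (41.6%), near the 39.6% of all 15649 genes tested. Of these, 29 had a higher response in BT-549 and 3 a lower one, against 19.5% and 20.1% of all genes. Among the named members of the large subunit it was 0.77 for RPL13A, 0.71 for RPL3, 0.58 for RPL10A, 0.52 for RPL22, 0.51 for RPL37, 0.44 for RPL15, 0.43 for RPL19, 0.39 for RPL4, 0.38 for RPL12, 0.37 for RPLP1, 0.36 for RPLP0, 0.33 for RPL5, 0.32 for RPL10, 0.23 for RPL34 and -0.42 for RPL23A. Among those of the small subunit it was 0.66 for RPS6, 0.63 for RPS18, 0.59 for RPS3A, 0.58 for RPS12, 0.47 for RPS14, 0.40 for RPS23, -0.33 for RPS26 and -0.54 for RPS10. The calls of RPL34 and RPS26 were lost when any 1 of 8 libraries was left out (adjusted p up to 0.133 for RPL34 and up to 0.0861 for RPS26), and that of RPLP1 with any 1 of 6 (adjusted p up to 0.111). RPL23A lost its call without SUM149 MUC1shRNA 3 (adjusted p = 0.0536), and RPS23 without BT-549 MUC1shRNA 2 (adjusted p = 0.0525).

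Outside the members, 9 genes of the lists had calls of opposite direction in the lines and a difference past the test. No share over all genes is given for such opposite calls. The difference was 3.70 for SESN2, 1.04 for MRPS10, 1.02 for EEF1A1, 0.92 for TPT1, 0.65 for EIF4B and 0.56 for LARP1, higher in BT-549. For AAMP it was -0.51, for HEATR3 -0.52 and for MRPS2 -0.68, lower in BT-549. The BT-549 calls of EEF1A1, TPT1, EIF4B, LARP1, AAMP and HEATR3 were each lost without any 1 of 2 to 5 libraries, and the SUM149 call of MRPS2 without CshRNA 1 or CshRNA 2 (adjusted p up to 0.0825). No explanation of these differences was tested.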

How the results depend on the processing

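The SUM149 count of 55 members stayed between 50 and 61 under all 15 alternatives, the interaction count of 32 between 24 and 37 under 21, and the control-cell count of 59 between 53 and 62 under 14. The BT-549 count of 19 did not: leaving out 1 library gave 3 to 23, and leaving out MUC1shRNA 2 and CshRNA 3 together, a choice made after seeing the data, gave 34. Same-numbered libraries did not deviate together (correlations of -0.25 to 0.10), but 3 libraries per group cannot show that the samples were unpaired. The largest correlation, 0.33, was between BT-549 MUC1shRNA 2 and CshRNA 3, which both lay apart from their groups. Whether these 2 libraries shared a batch is not given. With a replicate block the BT-549 count was 6, the SUM149 count 58 and the interaction count 28. The large minus small median in SUM149 ranged from -0.035 to 0.011 when 1 library was left out. The SUM149 difference in share was -1.02 points without the 3 members with the most counts and -1.09 points without RPS6, and the large to small ratio, MUC1shRNA over CshRNA, was 0.993 in both cases, against 1.07 with all members. The cause was not tested in any of these cases. For the 45 named members, under 66 alternatives over the 4 comparisons, 2968 values were recomputed: 2784 kept their side of the threshold, 119 lost a call, 65 gained one and 0 reversed a call.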
